A study of Homo sapiens with 6 samples.

Results

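Endoplasmic reticulum-associated degradation (ERAD) removes misfolded proteins from the secretory pathway. Its transcripts were followed in A549 cells, a long-established line from a human lung carcinoma, kept for 48 h in medium without glucose or in medium with 25 mM glucose. The 33 genes were taken by official NCBI symbol from a table of 19240 genes, and all 33 were found. By known role, 6 belong to substrate recognition, 16 to the ligase complexes of the membrane and 11 to extraction and hand-over to the proteasome. Each group had 3 libraries made from transcript 3' ends, with 11086416 to 14060313 gene counts without glucose and 6701004 to 14259943 with glucose. The labels do not tell whether each library had a culture of its own. The p-values therefore cover library-to-library spread, which may be technical. All libraries come from this 1 tumor line.

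In ERAD, mannosidases trim the N-glycans of proteins that fail to fold, and lectins bind the trimmed glycans. Substrates then pass through a channel in the membrane, where ubiquitin ligases such as SYVN1 (also called HRD1), with its partner SEL1L, tag them. The ATPase VCP (p97) pulls the tagged proteins into the cytosol, where shuttle proteins bring them to the proteasome. Genes of the luminal and membrane steps are known targets of the unfolded protein response, through the transcription factors XBP1 and ATF6. A binding element described for these factors is ERSE-II, which reads ATTGG, 1 base of any kind, then CCACG. HERPUD1, a membrane protein that organizes the SYVN1 complex, is a well-known bearer of this element. Its promoter is printed here because it was the only one of the 25 members with an entry in the RefSeq promoter table (GRCh38.p14) that held the element. The window is chr16:56931892-56932191 on the plus strand, from 250 bases before the transcript start to 50 bases after it, 5′ to 3′, and the capitals mark the ERSE-II match at bases −117 to −107 from the start.

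HERPUD1: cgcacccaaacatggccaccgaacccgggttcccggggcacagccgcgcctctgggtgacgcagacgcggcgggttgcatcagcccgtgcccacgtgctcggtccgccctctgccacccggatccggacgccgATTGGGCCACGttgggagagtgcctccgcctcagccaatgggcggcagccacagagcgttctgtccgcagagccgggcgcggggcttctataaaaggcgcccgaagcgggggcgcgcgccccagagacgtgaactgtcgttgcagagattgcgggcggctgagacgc

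Searched on both strands, ERSE-II stood in the windows of 0.133% of the 9805 tested genes with an entry. The longer ERSE, which is CCAAT, 9 bases of any kind and CCACG, was in 0.163% of those genes and in 0 of the 25 members. The UPRE core TGACGTGG was in 1.20% of the tested genes and, among members, in VCP. The shorter CCACG, which is contained in ERSE and ERSE-II, was found in 19 of the 25 members (76.0%) and in 58.0% of the tested genes. CCAAT, which ERSE also contains and which ERSE-II holds on its other strand, was found in 12 of 25 members and in 43.4% of the tested genes. A match describes letters in this window only.

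The 7 markers listed for A549 (keratins, aldo-keto reductases, ALDH1A1 and fibrinogen FGB) were detected in both groups and summed lower without glucose. They summed to 6204 to 7071 CPM without glucose and 8576 to 9316 CPM with it, where CPM is the read count relative to the TMM-scaled library total. Of the 7, 4 fell and 3 did not pass, beside 10.7% of all genes tested that fell. Those that fell were KRT8 (log2 fold change −1.18 ± 0.20, SE), KRT18 (−0.90 ± 0.18), AKR1B10 (−0.92 ± 0.18) and FGB (−2.89 ± 0.33), and their part in the results given here was not tested. ALDH1A1, which did not pass, had 3421 to 4469 CPM without glucose and 3125 to 3509 CPM with it. The alveolar genes SFTPC and SFTPA1 were at 0 in all 6 libraries, and 6 alveolar markers summed to 0.758 to 2.36 CPM without glucose and 0.989 to 1.34 CPM with it. The 8 markers of blood, endothelial and connective tissue cells summed to 4.51 to 5.82 CPM without glucose and 13.3 to 16.0 CPM with it. Most of this was COL1A1, with 4.21 to 5.37 CPM without glucose and 10.7 to 14.1 CPM with it. CD14 was also lower without glucose (mean 0.081 CPM against 1.13 CPM), and CD3E and COL1A2 were at 0 in all 6. Of 11 immediate-early and heat-shock genes listed as signs of handling stress, 6 rose and 5 did not pass (11.6% of all genes tested rose). Their median log2 fold change was 1.13, and their part in the results given here was not tested. Levels are relative to the library, so fewer cells expressing a gene and less RNA per cell cannot be told apart.

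Without glucose, 4 of 6 recognition genes, 6 of 15 tested membrane genes and 2 of 11 extraction genes rose, and the p97 ATPase VCP fell. SEL1L rose 6.97-fold, HERPUD1 4.56-fold, SYVN1 3.80-fold and DERL2 2.62-fold, while VCP was at 0.583 of its level with glucose. Of the 33 genes 32 had enough counts for the test. With edgeR's quasi-likelihood F test and p-values adjusted by Benjamini-Hochberg over 11886 tested genes, 12 of them rose, 1 fell and 19 missed an adjusted p of 0.05. Of all genes tested, 11.6% rose and 10.7% fell. The CPM of the groups did not overlap for 13 members that were higher and 5 that were lower without glucose, against 21.0% and 19.4% of all genes tested (40.4% in either direction). The median log2 fold change of the 32 was 0.55, beside 0.02 over all genes tested. Together the 33 genes took 0.379%, 0.4005% and 0.407% of the gene counts in the libraries without glucose, against 0.253%, 0.237% and 0.236% with glucose (replicates 1, 2 and 3). Genes with many reads weigh most in this share. SEL1L averaged 708 CPM without glucose and 102 CPM with it, SELENOS 404 and 147 CPM, and VCP, which fell, 217 and 373 CPM. Leaving out 1 library gave 8 to 11 higher members, with the lowest number without replicate 3 of the cells without glucose. In that fit 870 of all 11982 genes tested rose, against 1376 of 11886 with all 6 libraries.

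**Figure D1:**
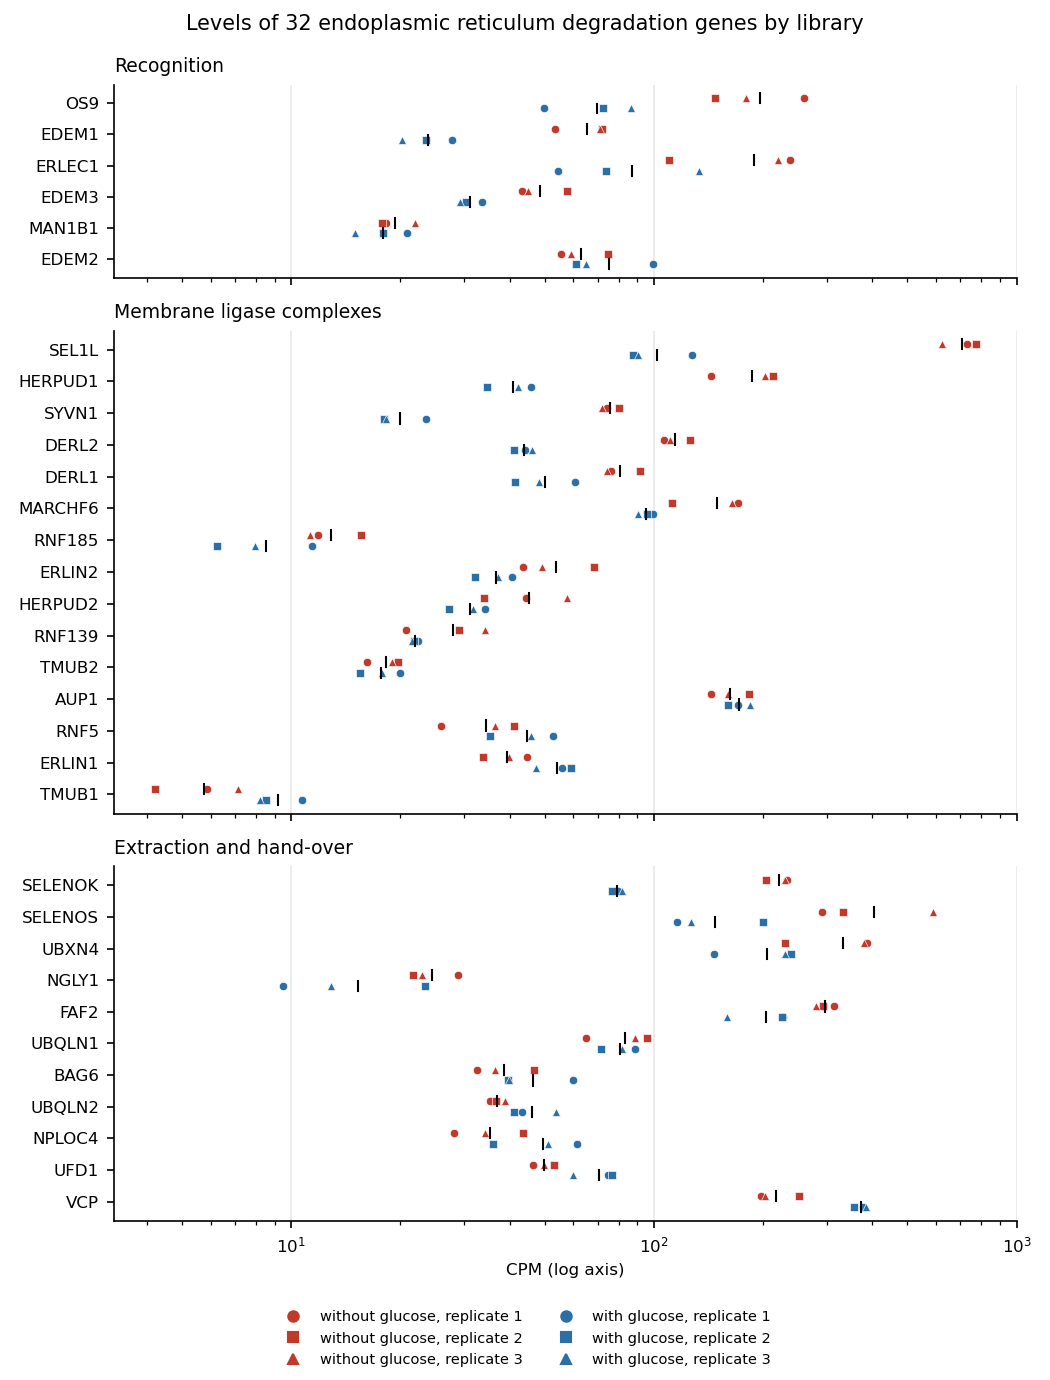
CPM (log axis) of the 32 tested genes in each library, by step. Points above are libraries without glucose (red) and points below are libraries with glucose (blue), with a black tick at each group mean. SEL1L, HERPUD1, SYVN1, DERL2, EDEM1, OS9, SELENOK and SELENOS have 2 separate clouds with the red one to the right, and VCP has the red one to the left.

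Among the recognition genes, the mannosidase-like EDEM1 and both lectins were higher, while EDEM2 and MAN1B1 did not pass. Of 6 genes, 4 rose and 2 did not pass, and the median log2 fold change was 0.88. EDEM1, which speeds the removal of misfolded glycoproteins, had 53.4, 71.9 and 71.0 CPM without glucose, against 27.7, 23.5 and 20.3 CPM with glucose. The groups did not overlap, and the log2 fold change was 1.46 ± 0.22 (SE, n = 3 per group; edgeR adjusted p = 6.91e-04). OS9, a lectin that hands trimmed glycoproteins to SEL1L, had 260.1, 148 and 179 CPM without glucose and 49.9, 72.6 and 86.2 CPM with glucose. Its libraries varied more than those of EDEM1, and the groups were still apart (log2 fold change 1.49 ± 0.27, edgeR adjusted p = 0.00224).

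ERLEC1, the related lectin, had 237, 109.9 and 219 CPM without glucose, against 54.4, 73.8 and 133 CPM with glucose. Its groups overlapped, because replicate 2 without glucose lay below replicate 3 with glucose. ERLEC1 rose by 1.11 ± 0.34 on the log2 scale (edgeR adjusted p = 0.0366). That call was lost when replicate 1 (0.123) or 3 (0.125) without glucose was left out, and when replicate 1 (0.101) or 2 (0.126) with glucose was left out (edgeR adjusted p). EDEM3, a mannosidase, had 43.2, 57.6 and 44.9 CPM without glucose, against 33.6, 30.3 and 29.1 CPM with glucose. It rose by 0.65 ± 0.20 on the log2 scale (edgeR adjusted p = 0.0352), with groups apart. The EDEM3 call was lost with library totals as scaling (0.0633), on dropping replicate 2 (0.124) or 3 (0.0674) without glucose, and on dropping replicate 2 (0.106) or 3 (0.119) with glucose (edgeR adjusted p). EDEM2, which makes the first mannose cut, averaged 63.0 ± 10.1 CPM without glucose and 75.1 ± 20.9 CPM with glucose (SD, n = 3 each; log2 fold change −0.25 ± 0.23). MAN1B1, a mannosidase of the early secretory pathway, averaged 19.3 ± 2.34 CPM without glucose and 17.9 ± 2.96 CPM with glucose (log2 fold change 0.12 ± 0.22).

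In the membrane, SEL1L, HERPUD1 and SYVN1, which act in 1 complex, had the highest fold changes of the 32, and of the other ligases MARCHF6 passed. Of 15 tested genes 6 rose and 9 missed the threshold, with a median log2 fold change of 0.55. SEL1L, the adaptor that holds SYVN1 stable and receives substrates, had 729, 774 and 623 CPM without glucose, against 127, 87.7 and 90.2 CPM with glucose. The lowest library without glucose was well above the highest with it, and the log2 fold change was 2.80 ± 0.23 (edgeR adjusted p = 2.72e-05). By fold change SEL1L stood at place 66 and by p at place 10 of all genes tested. HERPUD1, whose promoter is printed above, had 144, 213 and 203 CPM without glucose and 45.8, 34.8 and 42.2 CPM with glucose (log2 fold change 2.19 ± 0.23, edgeR adjusted p = 8.76e-05). SYVN1, the ligase itself, had 74.2, 80.2 and 72.1 CPM without glucose and 23.6, 18.0 and 18.2 CPM with glucose. Its groups were tight and apart, with a log2 fold change of 1.92 ± 0.20 (edgeR adjusted p = 9.93e-05).

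The derlins, rhomboid-like proteins that form part of the channel, were all higher without glucose, by different amounts. DERL2 had 107, 126 and 111 CPM without glucose, against 44.1, 41.1 and 46.0 CPM with glucose (log2 fold change 1.39 ± 0.19, edgeR adjusted p = 4.89e-04). DERL1 had 76.3, 91.8 and 74.1 CPM without glucose and 60.7, 41.5 and 48.2 CPM with glucose. The groups of DERL1 were apart and it rose by 0.69 ± 0.21 on the log2 scale (edgeR adjusted p = 0.0359). DERL3, the form known as strongly inducible, had 8, 17 and 10 counts without glucose and 0 counts in each library with glucose. With 35 counts over the libraries without glucose, against a floor of 3 counts over those with glucose, it was 9.95-fold higher. That value takes the 35 counts as exact, so it is not a strict lower limit. DERL3 did not reach the minimum for the test, and its exons overlap those of SMARCB1 on the opposite strand. With no filter on low counts it passed (edgeR adjusted p = 0.00915). The call for DERL1 was lost with library totals as scaling (0.05996) and on dropping replicate 1 (0.0590), 2 (0.105) or 3 (0.0642) without glucose. It was also lost on dropping replicate 2 (0.141) or 3 (0.110) with glucose (edgeR adjusted p).

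Among the other ligases of the membrane, MARCHF6, which degrades enzymes of sterol synthesis, had 171, 112 and 164 CPM without glucose, against 99.1, 95.9 and 90.4 CPM with glucose. It rose by 0.65 ± 0.21 on the log2 scale (edgeR adjusted p = 0.0457), close to the threshold. The call did not hold with RLE scaling (0.0509), with library totals (0.0652), or on dropping replicate 1 (0.136) or 3 (0.145) without glucose. Nor did it hold on dropping replicate 1 (0.0619), 2 (0.118) or 3 (0.138) with glucose (edgeR adjusted p). The ligases RNF5, RNF139 and RNF185 did not pass, with log2 fold changes of −0.37 ± 0.23, 0.35 ± 0.22 and 0.61 ± 0.28. RNF185 passed without replicate 1 with glucose (edgeR adjusted p = 0.0455). RNF5 has a pseudogene, RNF5P1, and reads that align equally well to both are left out of gene counts, so its level is uncertain.

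The 6 accessory proteins of the ligases did not pass, with differences in both directions. HERPUD2, the paralog of HERPUD1, had 44.4, 34.0 and 57.6 CPM without glucose and 34.3, 27.2 and 31.8 CPM with glucose, with overlapping groups (log2 fold change 0.55 ± 0.23). AUP1, which recruits a ubiquitin-conjugating enzyme, averaged 162 ± 19.6 CPM without glucose and 172 ± 12.0 CPM with glucose (SD, n = 3 each). TMUB1, a ubiquitin-like membrane protein, had 5.88, 4.21 and 7.14 CPM without glucose and 10.7, 8.54 and 8.23 CPM with glucose. Those TMUB1 groups did not overlap (log2 fold change −0.67 ± 0.28, edgeR adjusted p = 0.109). For TMUB2, another such protein, the log2 fold change was 0.05 ± 0.21. The scaffold proteins ERLIN1 and ERLIN2, which help degrade inositol trisphosphate receptors, lay on opposite sides. ERLIN1 had 44.5, 33.7 and 39.8 CPM without glucose, against 55.8, 59.1 and 47.3 CPM with glucose (log2 fold change −0.46 ± 0.20, edgeR adjusted p = 0.120). ERLIN2 had 43.5, 68.5 and 49.0 CPM without glucose, against 40.7, 32.2 and 37.3 CPM with glucose (log2 fold change 0.55 ± 0.22, edgeR adjusted p = 0.0922). In neither gene did the groups overlap.

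**Figure D2:**
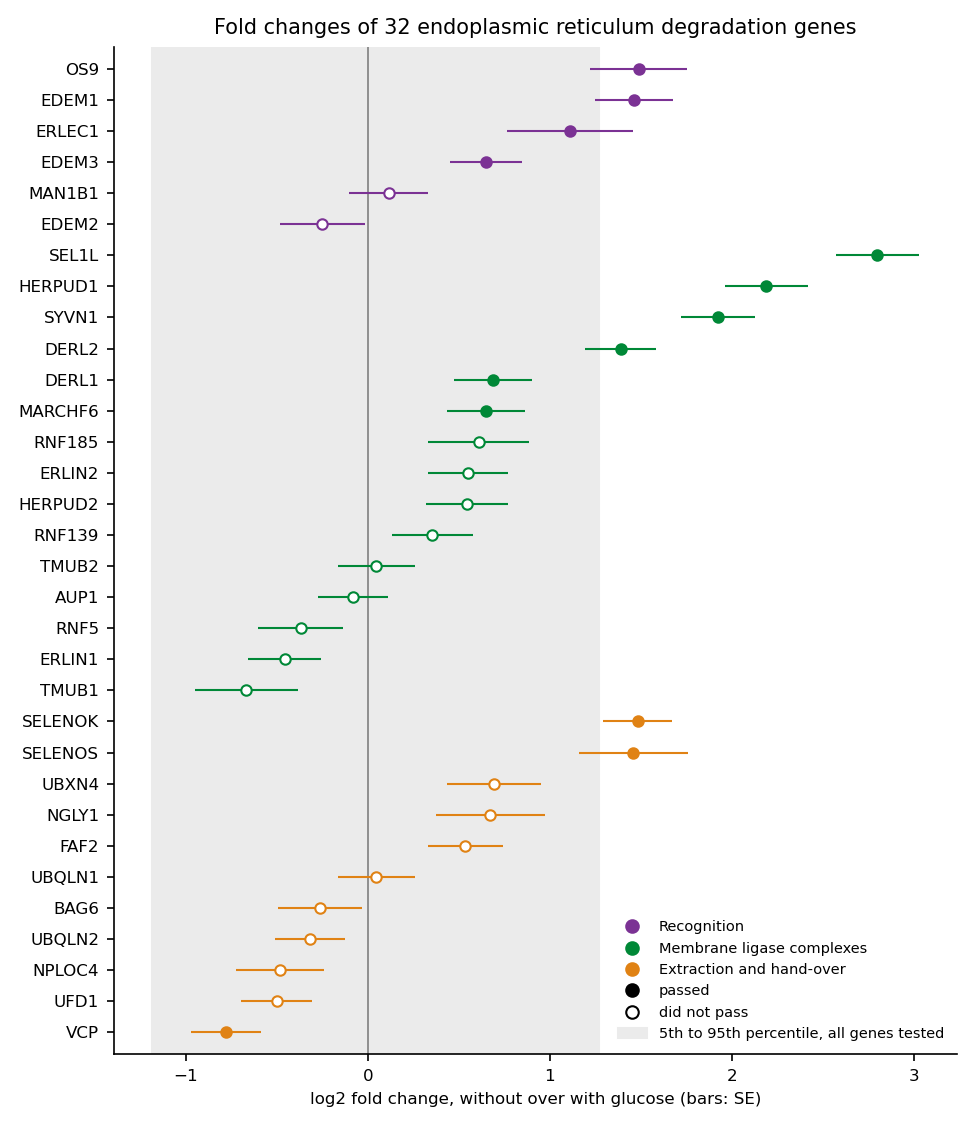
Log2 fold change, without over with glucose, of the 32 tested genes by step, with bars for the SE. Filled points passed the edgeR test and open points did not, and the grey band holds the 5th to 95th percentile of all 11886 genes tested. SEL1L at 2.80 and VCP at −0.78 are the ends of the range.

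At the extraction step the selenoproteins that tether p97 were higher and p97 itself was lower. Out of 11 genes, 2 rose, 1 fell and 8 missed the threshold, with a median log2 fold change of 0.05. Of all genes tested, 11.6% rose and 10.7% fell, so the counts for this step lay near the background. SELENOK had 232, 204 and 229 CPM without glucose, against 79.7, 76.5 and 81.9 CPM with glucose. All 3 libraries of each group lay close together, and the log2 fold change was 1.48 ± 0.19 (edgeR adjusted p = 2.78e-04). SELENOS had 289.8, 333 and 589.6 CPM without glucose and 116, 199 and 126 CPM with glucose. Replicate 3 without glucose stood high, and the groups were apart (log2 fold change 1.46 ± 0.30, edgeR adjusted p = 0.00471).

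VCP had 197, 252 and 203 CPM without glucose, against 378, 356 and 384 CPM with glucose. Every library without glucose lay below every library with glucose, and VCP fell with a log2 fold change of −0.78 ± 0.19 (edgeR adjusted p = 0.0131). The call was lost without replicate 3 of the cells without glucose (−0.73, edgeR adjusted p = 0.0623). UFD1 and NPLOC4, the cofactors through which VCP grips ubiquitin chains, did not pass. UFD1 had 46.5, 53.0 and 49.8 CPM without glucose and 74.9, 76.8 and 59.9 CPM with glucose, with groups apart (log2 fold change −0.50 ± 0.20, edgeR adjusted p = 0.0851). NPLOC4 had 28.1, 43.4 and 34.2 CPM without glucose and 61.3, 36.0 and 50.9 CPM with glucose, with overlapping groups (log2 fold change −0.48 ± 0.24).

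FAF2 and UBXN4, membrane proteins that recruit VCP, had positive log2 fold changes of 0.54 ± 0.21 and 0.69 ± 0.26 and did not pass. FAF2 had 314, 293 and 281 CPM without glucose, against 228, 226 and 159 CPM with glucose. UBXN4 had 387, 229 and 379 CPM without glucose and 147, 239 and 229.8 CPM with glucose, and passed once replicate 2 without glucose was left out (0.88, edgeR adjusted p = 0.0331). NGLY1, the cytosolic enzyme that strips N-glycans, had 28.9, 21.6 and 22.9 CPM without glucose and 9.46, 23.4 and 12.9 CPM with glucose. Replicate 2 with glucose was the high one in its group, and without it NGLY1 passed (1.12, edgeR adjusted p = 0.0198). BAG6, a holdase for exposed membrane segments, and the shuttle proteins UBQLN1 and UBQLN2 did not pass, with log2 fold changes of −0.26 ± 0.23, 0.05 ± 0.21 and −0.32 ± 0.19. UBQLN2 had 35.3, 36.8 and 38.9 CPM without glucose and 43.4, 41.1 and 53.7 CPM with glucose, with groups apart (edgeR adjusted p = 0.261). ERLEC1, UFD1, FAF2, SELENOK and UBQLN1, like RNF5, have annotated pseudogenes, so their counts are uncertain in the same way.

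A ratio of 2 genes within a library does not depend on how libraries are scaled, so related genes were compared in that way. The test was an exact two-sided permutation test of 3 libraries against 3, which cannot go below 0.10, and 11 pairs were tested. In 8 of the 11 the groups did not overlap. The share among other gene pairs was not computed, and 40.4% of single genes tested had groups that did not overlap. HERPUD1 had 3.24, 6.27 and 3.51 reads per read of HERPUD2 without glucose, against 1.33, 1.28 and 1.33 with glucose. The ratio was 3.16-fold higher and the groups did not overlap (exact p = 0.10, adjusted p = 0.138 over the 11 pairs). SEL1L had 9.82, 9.65 and 8.63 reads per read of SYVN1 without glucose and 5.40, 4.86 and 4.95 with glucose, a 1.85-fold higher ratio. Its ratio in each library without glucose lay above all 3 with glucose (exact p = 0.10, adjusted p = 0.138).

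EDEM1 relative to EDEM3 stood at 1.23, 1.25 and 1.58 without glucose and 0.824, 0.775 and 0.696 with glucose. EDEM2 relative to EDEM3 stood at 1.28, 1.29 and 1.32 without glucose, against 2.95, 2.01 and 2.23 with glucose. DERL1 relative to DERL2 stood at 0.715, 0.728 and 0.669 without glucose and 1.38, 1.01 and 1.05 with glucose. In these 3 ratios the groups did not overlap (exact p = 0.10 and adjusted p = 0.138 for each). The ratios to EDEM3 share that gene, so they are not independent of each other. The ratios ERLIN1 to ERLIN2, RNF5 to RNF185 and TMUB1 to TMUB2 were 0.504, 0.498 and 0.597 of their value with glucose, also with no overlap and the same exact p. OS9 to ERLEC1, UBQLN1 to UBQLN2 and NPLOC4 to UFD1 overlapped between the groups (geometric mean ratios without over with glucose of 1.27, 1.27 and 1.01, exact p = 0.40, 0.20 and 0.90). The ratio of SEL1L to VCP was looked at after the values were seen and was not tested. It was 3.70, 3.08 and 3.07 without glucose and 0.337, 0.247 and 0.235 with glucose.

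**Figure D3:**
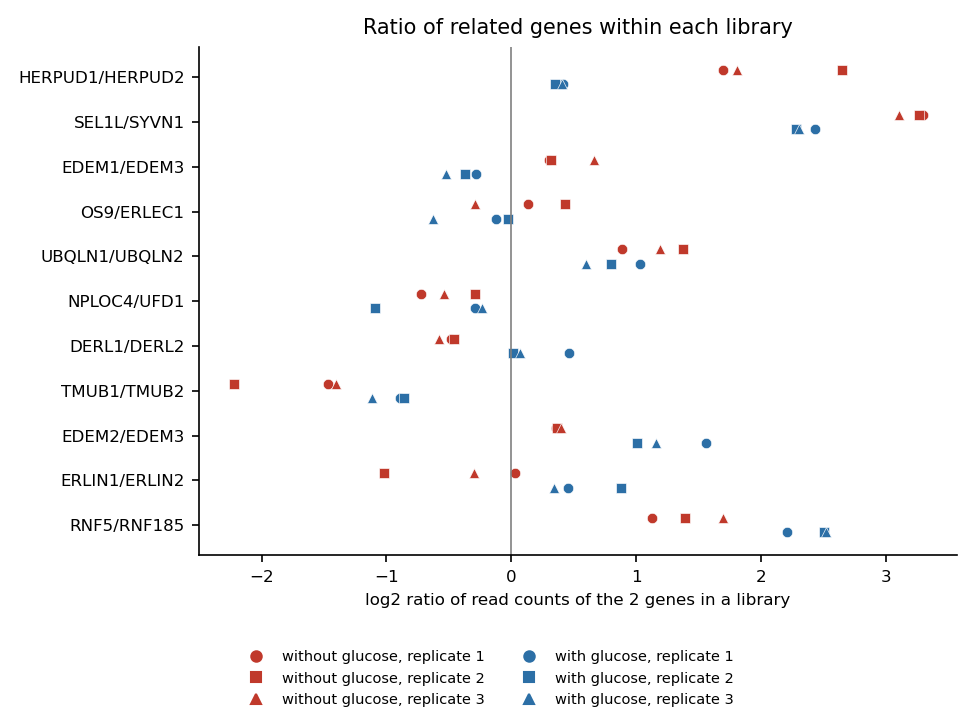
Log2 ratio of the read counts of related genes in each library, with libraries without glucose (red) above those with glucose (blue). HERPUD1/HERPUD2, SEL1L/SYVN1 and EDEM1/EDEM3 are shifted to the right without glucose and DERL1/DERL2, EDEM2/EDEM3, ERLIN1/ERLIN2, RNF5/RNF185 and TMUB1/TMUB2 to the left.

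A further 53 genes of the pathway were listed by role, and 52 had enough counts for the test. Of these, 13 rose, 4 fell and 35 missed the threshold, with 11.6% and 10.7% of all genes tested as the background. Genes listed under recognition accounted for 7 of the 13 that rose. They were CANX, CALR, UGGT2, DNAJC10, DNAJB9, DNAJB11 and SDF2L1, out of 13 tested genes of recognition (median log2 fold change 1.26). Another 5 of that list missed the threshold. DNAJB9, a co-chaperone of misfolded proteins, had 48.9, 68.4 and 50.3 CPM without glucose and 7.06, 9.89 and 11.2 CPM with glucose (log2 fold change 2.56 ± 0.24, edgeR adjusted p = 6.30e-05). DNAJC10, a disulfide reductase that opens substrates for export, rose 5.04-fold, SDF2L1 4.96-fold and its partner DNAJB11 4.41-fold. FOXRED2, a flavoprotein of ERAD, was the recognition gene that fell (−0.80 ± 0.20).

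Among 17 other membrane genes, 4 rose, 1 fell and 12 missed the threshold, with a median of −0.01. UBE2J1, the ubiquitin-conjugating enzyme that works with SYVN1, had 92.2, 90.7 and 217 CPM without glucose and 57.6, 54.6 and 49.8 CPM with glucose (log2 fold change 1.30 ± 0.31, edgeR adjusted p = 0.0109). Replicate 3 without glucose was again the high library, and on dropping it the log2 fold change was 0.76 and the call held. Its relative UBE2J2 fell with a log2 fold change of −0.73 ± 0.21. INSIG2, which delivers HMG-CoA reductase to ligases, and RHBDD1, a membrane protease, rose by 1.09 ± 0.26 and 1.10 ± 0.29. INSIG1 also rose, by 0.69 ± 0.20.

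Among 22 other genes of extraction, 2 rose, 2 fell and 18 missed the threshold, with a median of −0.02. These counts too lay near the 11.6% and 10.7% of all genes tested that rose and fell. ATXN3, a deubiquitinase bound to VCP, and UBXN8, a VCP-binding membrane protein, rose by 0.77 ± 0.20 and 0.82 ± 0.23. SGTA, which works with BAG6, and the deubiquitinase USP13 fell with −0.92 ± 0.24 and −0.87 ± 0.24. Of the 10 regulators of the unfolded protein response 5 rose and 5 did not pass, beside 11.6% of all genes tested that rose. HSPA5, DDIT3, ATF6 and XBP1 had the smallest p among them, with log2 fold changes of 3.15, 1.70, 1.24 and 0.98, and MBTPS2, the protease that frees ATF6, rose by 0.61. Of the calls named here beyond the 33 genes, that for MBTPS2 was lost in 5 of 6 leave-one-out fits, those for UBE2J2, ATXN3 and INSIG1 in 4, those for RHBDD1, UBXN8 and USP13 in 3, those for INSIG2 and SGTA in 2 and that for FOXRED2 in 1 (edgeR adjusted p up to 0.124). With library totals as scaling MBTPS2 was also lost (edgeR adjusted p = 0.0639), which left 4 of the 10 regulators. On dropping replicate 3 without glucose, 8 of the 52 rose and 2 fell (870 and 781 of all 11982 genes tested). On dropping replicate 1 without glucose 2 fell (966 of all 12104). On dropping replicate 3 with glucose 1 fell (898 of all 11995).

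**Figure D4:**
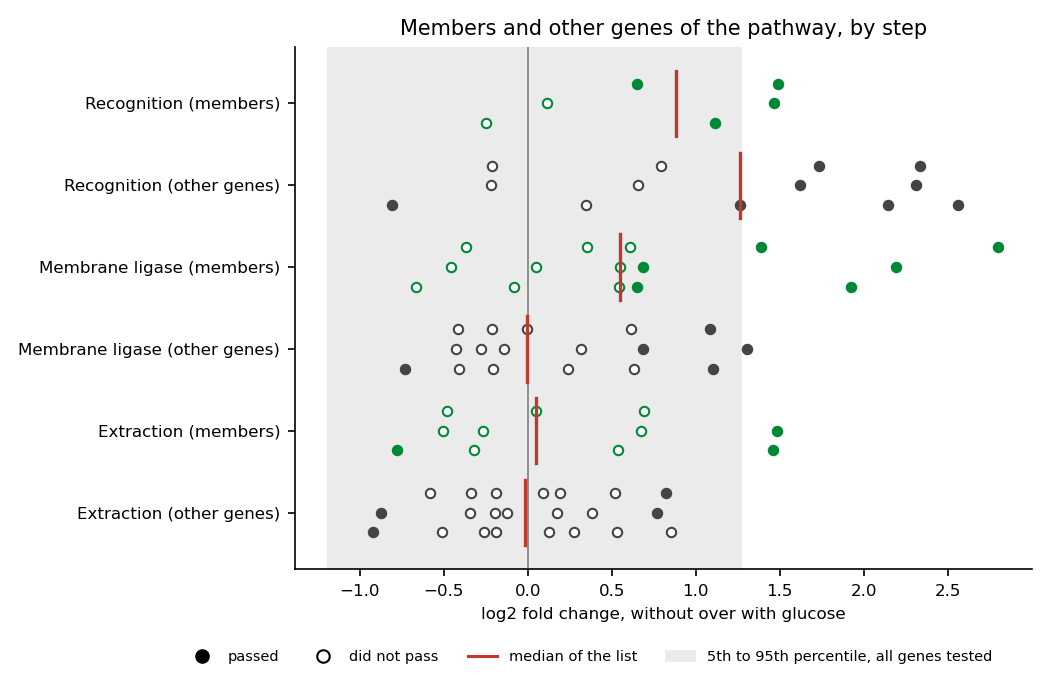
Log2 fold changes, without over with glucose, of the 32 tested members (green) and the 52 other tested genes of the pathway (grey), by step. Filled points passed the edgeR test, red lines are list medians and the grey band holds the 5th to 95th percentile of all genes tested. The recognition lists have the highest medians, 0.88 and 1.26, and extraction genes centre near 0, with 0.05 and −0.02. The point furthest to the right is a membrane gene, SEL1L, at 2.80.

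Across the 12 other settings tried, 8 of the 13 members that passed did so in every setting. These were SEL1L, HERPUD1, SYVN1, DERL2, EDEM1, OS9, SELENOK and SELENOS. The matching share over all genes that passed was not computed. Whether members keep their calls more often than other genes is therefore not known. EDEM3, ERLEC1, DERL1, MARCHF6 and VCP kept their direction in every setting and missed the threshold in at least 1. Of the 6 recognition genes 2 rose on dropping either replicate 3 without glucose or replicate 2 with glucose. In these fits 870 of 11982 and 858 of 12116 genes tested rose.

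**Figure D5:**
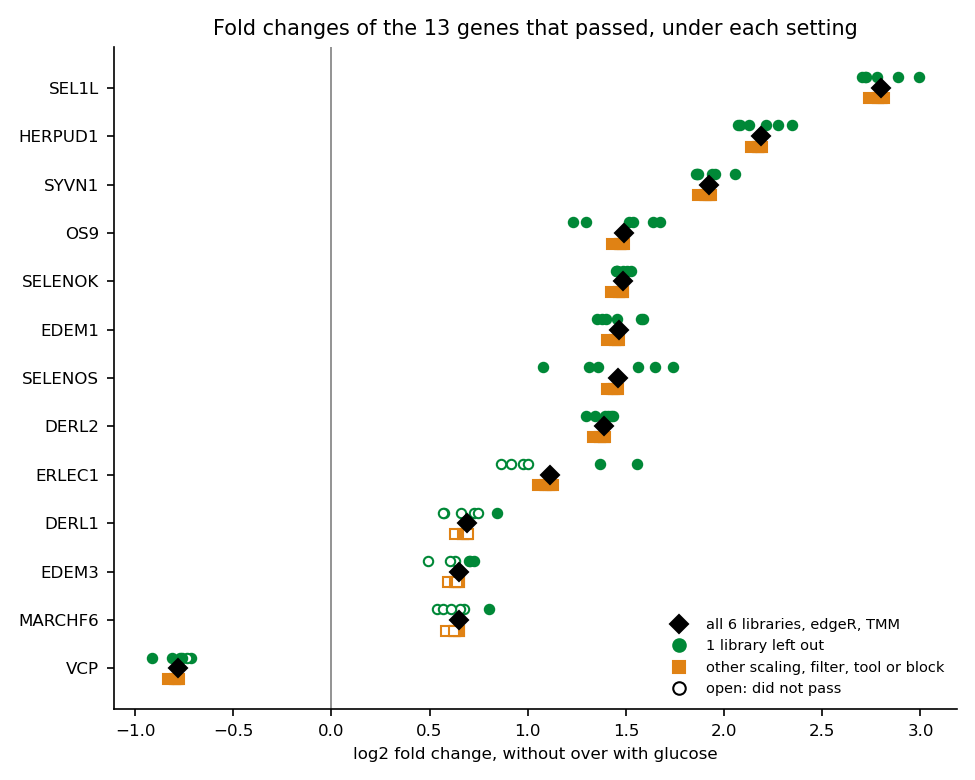
Log2 fold change, without over with glucose, of the 13 members that passed, with all 6 libraries (black), with 1 library left out (green) and with another scaling, filter, tool or block (orange). Open points did not pass. The 8 members with the highest values have filled points only, and ERLEC1, DERL1, EDEM3, MARCHF6 and VCP have open ones.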

How the data were processed

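The authors deposited raw counts of reads per gene, made with STAR and HTSeq on hg19 per the submitters' processing notes. Tool versions, the annotation and any use of strand in HTSeq were not given in the sources used here, so reads of EDEM1, OS9, SYVN1, DERL1, DERL3, AUP1, ERLIN2, RNF185, UFD1 and BAG6, whose exons overlap a gene on the other strand in GENCODE v29, may be affected. Per the labels' protocols, cDNA was primed with barcoded oligo-dT and amplified by PCR. No molecular identifiers are mentioned, so floors cover counting error only. Of 19240 Entrez identifiers 19178 were matched to a symbol in a RefSeq table (GRCh38.p14). The 5 HTSeq summary lines, 55.3% to 56.9% of the reads in the table, stayed out of library sizes and tests.

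Groups came from the sample labels. Counts were tested with edgeR 4.0.16 (glmQLFit and glmQLFTest, two-sided, TMM scaling, no covariate, genes kept by filterByExpr at a minimum count of 10), with p-values adjusted by Benjamini-Hochberg over 11886 genes. SE was taken as the absolute log2 fold change over the root of F. The code was tested on simulated data. The members and lists were chosen with earlier results of these data known. All members are named, and of each other list the 4 genes with the smallest p; CANX, CALR, UGGT2, FOXRED2, INSIG1, MBTPS2 and the marker genes were chosen after their values were seen. Libraries of a group differed by more than sampling noise (chi-square per degree of freedom 22.8 to 59.7), so none were merged. The alternatives were RLE scaling (DESeq2's size factors), library totals, no filter, a mean of 20 or more counts, DESeq2 1.42.0, a replicate block, and each library left out. Printing of protein sequences was planned but not done.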

Additional observations from a re-analysis of the deposited data

How the results depend on the processing

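The medians of all members, of recognition and of the membrane step kept their side under each other scaling, filter and tool. Members that rose numbered from 9 with library totals (3 of recognition, 4 of the membrane step) to 13 of 33 with no filter. Beside these, 1207 of all 11886 and 1502 of all 14886 genes tested rose. In each of these fits 1 member fell, beside 1254 of 11152 to 1581 of 11886 of all genes tested. With library totals as scaling the median of the extraction genes was −0.0083, against 0.05 with TMM, and UBQLN1 (−0.0083) and TMUB2 (−0.010) also turned negative. The labels do not tell whether replicate numbers pair the libraries. After the group mean of each gene was taken off, same-numbered libraries had correlations of −0.30, −0.14 and 0.04. Differently numbered libraries had −0.23 to 0.29. With 3 libraries per group such values cannot settle whether the numbers pair them. With the replicate block 9 members rose and 1 fell, while 984 and 911 of all 11886 genes tested did so. EDEM3, DERL1 and MARCHF6 were lost (edgeR adjusted p = 0.0871, 0.0833 and 0.112), and 2 of the other pathway genes fell. The block also ended the calls for UBE2J2 (0.0640), USP13 (0.0509), INSIG1 (0.0832) and MBTPS2 (0.0911), leaving 4 regulators that rose, and ended no other call of a named gene. On leaving out 1 library, 2 to 3 recognition genes rose and 0 to 1 member fell (0 to 1 of extraction). The extraction median ran from −0.079 to 0.19, and 8 to 14 other pathway genes rose and 1 to 4 fell. Over all genes tested, 858 of 12116 to 1292 of 12096 rose, and 781 of 11982 to 1232 of 12096 fell. In the same fits log2 fold changes ran from −0.044 to 0.13 for TMUB2, −0.079 to 0.19 for UBQLN1 and −0.0034 to 0.24 for MAN1B1, and the NPLOC4 to UFD1 log2 ratio difference from −0.26 to 0.17. Each of these sits near 0, and the cause of the sign changes was not tested. On the given strand only, 9 of the 25 members (36%) held CCACG, against 34.9% of the tested genes. For CCACG the members were then close to the tested genes, unlike in the search of both strands. CCAAT went the other way. It was in 10 of the 25 members (40%) on the given strand, against 25.4% of the tested genes. On both strands the shares were 48% and 43.4%. The ratio of DERL3 to DERL2 could not be tested because DERL3 was at 0 with glucose. Depth limits the genes with few counts, DERL3 and TMUB1 among the members.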
